A study of Mus musculus with 6 samples.

Results

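The genes Dmp1, Ibsp, Mepe and Dspp encode 4 members of a family of acidic phosphoproteins of mineralised matrix, the small integrin-binding ligand, N-linked glycoproteins. They were chosen by name, and all 4 had a probe set of their own among the 19938 genes with a value. Their transcripts were read on Affymetrix mogene ST arrays from CAR cells, the Cxcl12-abundant reticular stromal cells of bone marrow, sorted by flow cytometry from femur and tibia. The populations were CAR cells targeted by Dmp1-Cre and CAR cells not targeted by it, each with 3 biological replicates and 1 array per replicate. All mice were C57BL/6, 7 weeks old, and of genotype Dmp1-Cre Cxcl12-gfp/+, so both populations came from animals carrying the Cre transgene and 1 Cxcl12 allele with gfp. Per the design text the cells came from 3 mice, with a mouse's cells as a sample, but the labels do not say which targeted and non-targeted replicates shared a mouse. The Cre is named for Dmp1 regulatory sequence. The sources used here do not give how targeting was scored in the sort or which Dmp1 fragment drives the Cre.

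These proteins are secreted into bone and dentin, where their phosphorylated, acidic stretches bind calcium and their Arg-Gly-Asp motifs bind integrins. DMP1 (dentin matrix protein 1) is made by late osteoblasts and osteocytes and acts in phosphate balance through FGF23. IBSP (bone sialoprotein) promotes the first mineral crystals and is made by osteoblasts as they differentiate. MEPE (matrix extracellular phosphoglycoprotein) is an osteocyte protein whose C-terminal peptide inhibits mineralisation, and DSPP (dentin sialophosphoprotein) is the main non-collagen protein of dentin, made chiefly by odontoblasts. The kinase FAM20C phosphorylates them.

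The 4 genes lie side by side on mouse chromosome 5. In the order of the RefSeq annotation of GRCm38.p6 the protein-coding genes run Sparcl1, Dspp, Dmp1, Ibsp, Mepe, Spp1 and Pkd2. Spp1, a further gene of the same family, and Pkd2 were not analysed here. The sequences before the starts of Dmp1 and Ibsp are shown because these adjacent genes had the contrasting values described below. They are the 250 bases before each start on the plus strand, from RefSeq (GRCm38.p6), and the table holds 2 starts for Dmp1, 1 each for Ibsp and Mepe, and none matched for Dspp. Capitals mark the motifs found in a search of both strands for CACGTG (an E-box), ACCACA (the core bound by Runx factors), ATTGG (the CCAAT box), TGANTCA (AP-1), TATAAA (the TATA box) and TGACGT (part of the cyclic AMP response element), and no matches overlapped. The motifs were chosen with these sequences in view.
Dmp1 upstream start, chr5:104197325-104197574: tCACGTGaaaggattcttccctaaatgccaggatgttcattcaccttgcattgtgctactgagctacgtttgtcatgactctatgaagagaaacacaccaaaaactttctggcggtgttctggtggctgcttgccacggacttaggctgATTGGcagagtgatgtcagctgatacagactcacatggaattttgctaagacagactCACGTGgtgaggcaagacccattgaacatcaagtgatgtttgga
Dmp1 downstream start, chr5:104202367-104202616: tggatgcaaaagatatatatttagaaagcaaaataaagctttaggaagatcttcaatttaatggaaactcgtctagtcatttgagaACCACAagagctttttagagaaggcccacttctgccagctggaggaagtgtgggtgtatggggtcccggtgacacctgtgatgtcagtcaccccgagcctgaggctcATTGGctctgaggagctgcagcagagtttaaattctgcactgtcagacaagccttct
Ibsp, chr5:104299037-104299286: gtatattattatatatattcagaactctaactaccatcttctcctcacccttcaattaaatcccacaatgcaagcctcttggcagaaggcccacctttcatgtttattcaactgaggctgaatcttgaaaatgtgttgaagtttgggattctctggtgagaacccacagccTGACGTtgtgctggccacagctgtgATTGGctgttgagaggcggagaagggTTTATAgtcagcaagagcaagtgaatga

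The window at the upstream Dmp1 start held 2 E-boxes, beginning 249 and 44 bases before the start. Of the 32851 windows of this length in the table, 6.02% held at least 1 E-box and 0.429% held 2 or more. The window at the downstream Dmp1 start held 1 Runx core, 164 bases before the start, a motif found in 14.0% of windows. The Ibsp window held a TATA box read on the minus strand, 28 bases before the start (12.4% of windows), and a TGACGT 79 bases before it (6.47%). A CCAAT box stood in each of the windows, as it did in 33.8% of all windows. The Mepe window held 2 Runx cores, where 1.27% of windows held 2 or more. It also held a TATA box read on the minus strand, 173 bases before the start. No window of these genes held the AP-1 motif, which 6.75% of all windows did. A match describes letters in these windows and says nothing of binding.

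Median intensities of the arrays lay between 79.4 and 87.5, and no array duplicated another. The sorted cells carried the defining genes of CAR cells in both populations. All 14 listed CAR cell genes passed the filter on dim genes, and they averaged log2 intensities of 11.38, 11.01 and 11.05 in targeted cells, against 11.36, 11.64 and 11.45 in non-targeted cells. The labels call the replicates biological, and precision is limited by having 3 arrays per population. Probe sets differ in how strongly they bind, so a level below is a place among signals on an array and not an amount of transcript.

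Of the 4 genes only Dmp1 had targeted arrays that all lay above the non-targeted ones. Dmp1 was at log2 intensities of 11.28, 10.03 and 9.89 in targeted CAR cells, against 7.51, 6.93 and 6.91 in non-targeted CAR cells. The lowest targeted array lay 2.38 above the highest non-targeted array, a gap wider than the range within the targeted arrays (1.39) or the non-targeted arrays (0.60). The means were 10.40 ± 0.77 and 7.12 ± 0.34 (SD, n = 3 each), a log2 difference of 3.28 (SE 0.37, 95% interval 2.41 to 4.15), or 9.72-fold with an interval of 5.32-fold to 17.8-fold. This was the largest log2 difference and the smallest p among the 13292 genes tested, places 1 and 1. It did not pass over all genes (limma, unadjusted p = 2.89e-05, adjusted p = 0.384), and the exact permutation test gave its smallest possible two-sided p, 0.1. Neither test paired the samples by mouse, because the labels do not give that pairing. Because the Cre that defines the groups is named for Dmp1 sequence, the Dmp1 difference cannot be taken as independent of the sort. In sorted bulk RNA, a larger share of cells with Dmp1 transcript and more transcript per cell cannot be told apart.

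**Figure D1:**
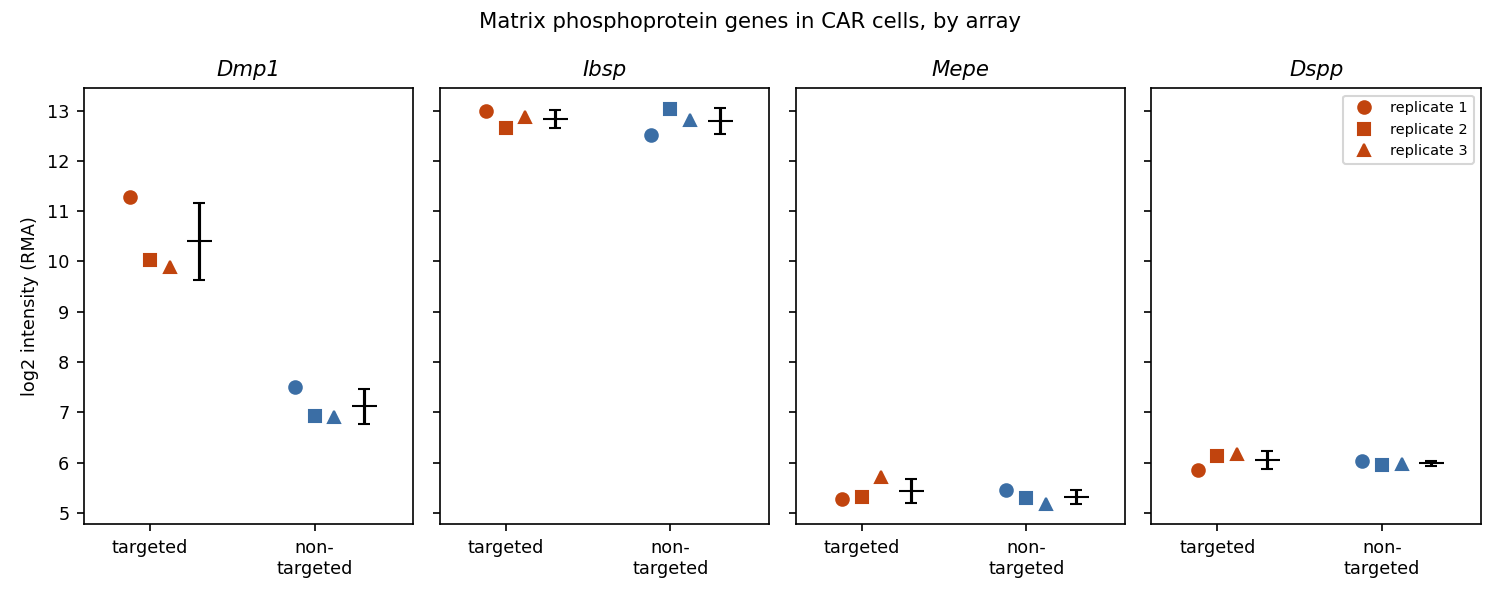
Log2 intensity (RMA) of Dmp1, Ibsp, Mepe and Dspp on each array, targeted CAR cells left of non-targeted CAR cells in each panel; points are arrays, symbols give the replicate number, and bars are the mean ± SD of 3 arrays. The Dmp1 arrays of the populations are separated by a gap of 2.38, and those of the other genes overlap.

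No tested member passed the adjusted threshold of 0.05. Of the members, 3 passed the filter on dim genes (Dmp1, Ibsp and Dspp), and 0 of these were called by limma, as were 0 of the 13292 genes, 0.0% higher and 0.0% lower. At an unadjusted p under 0.05 limma counted 634 genes, or 4.77%, with Dmp1 the only member among them. Log2 differences were above 0 for 48.9% of genes tested and below 0 for 51.1%. Targeted arrays lay wholly above non-targeted arrays for 3.32% of genes tested and wholly below for 5.76%. The values of Dmp1 depended on replicate 1 in size but not in direction: without targeted replicate 1 the log2 difference was 2.84 (limma, adjusted p = 0.0878), and without both replicate 1 arrays it was 3.04. With arrays weighted by their quality the same difference was called, at 3.19 (limma, adjusted p = 0.0259). Dmp1 was then the only gene called (0.00752% of those tested). Over the alternatives the adjusted p of limma ran from 0.0153, with the replicate number as a block, to 0.9999.

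Ibsp stood near the top of both populations and hardly differed between them. Its log2 intensities were 13.00, 12.64 and 12.87 in targeted cells, against 12.52, 13.03 and 12.82 in non-targeted cells. The highest array and the lowest array were both non-targeted, and the groups overlapped throughout. The means were 12.84 ± 0.18 and 12.79 ± 0.26 (SD, n = 3 each), with a log2 difference of 0.05 (SE 0.19, 95% interval -0.39 to 0.48), so the interval of the ratio ran from 0.765-fold to 1.39-fold. The difference did not pass (limma, adjusted p = 0.9998), and its sign turned without targeted replicate 1 (-0.034), without non-targeted replicate 1 (-0.090) and with array weights (-0.038). Among the 19938 genes Ibsp held places 29, 41 and 27 from the top in targeted cells, against places 44, 33 and 37 in non-targeted cells.

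Mepe gave a dim signal in both populations. It was at 5.27, 5.32 and 5.72 in targeted cells, against 5.46, 5.29 and 5.18 in non-targeted cells. Targeted replicate 3 was the highest array, and the others overlapped. The means were 5.44 ± 0.24 and 5.31 ± 0.14 (SD, n = 3 each), below the filter at 6.00, so Mepe was not among the genes tested. In the fit without the filter its log2 difference was 0.13 (SE 0.17, 95% interval -0.26 to 0.51), which did not pass (limma, adjusted p = 0.9998), and the interval of the ratio ran from 0.834-fold to 1.43-fold. It was -0.01 without targeted replicate 3.

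Dspp was also dim, lying just above the filter. It was at 5.86, 6.14 and 6.17 in targeted cells, against 6.04, 5.95 and 5.97 in non-targeted cells. The lowest array was targeted replicate 1 and the highest was targeted replicate 3, with all non-targeted arrays between them. The means were 6.05 ± 0.17 and 5.99 ± 0.05 (SD, n = 3 each), with a log2 difference of 0.07 (SE 0.15, 95% interval -0.29 to 0.42), which did not pass (limma, adjusted p = 0.9998). The interval of the ratio ran from 0.820-fold to 1.34-fold, so a change as large as that of Dmp1 lay outside the intervals of the other 3 genes, while small changes in either direction lay within them. For Mepe and Dspp, signals near the array's floor can understate a difference.

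The places of the genes among all signals give the scale of these levels. On the targeted arrays Dmp1 lay at percentiles of 96.6 to 98.8 of the 19938 genes, against 59.1 to 73.1 on the non-targeted arrays. Mepe lay at percentiles of 17.6 to 25.0 in targeted cells, against 16.9 to 20.8 in non-targeted cells. Dspp lay at 33.0 to 36.5 in targeted cells, against 32.9 to 35.3 in non-targeted cells. Olfactory receptor genes, which act in the nose, served as a gauge of dim signal, chosen after the values were seen. The mean of Mepe over targeted arrays lay above that of 72.3% of 1015 olfactory receptor genes, and over non-targeted arrays above that of 71.6%. For Dspp the share was 89.3% in both populations. Dmp1 lay above all 1015 in targeted cells and above 1004 of them in non-targeted cells, and Ibsp above all 1015 in both. Mepe and Dspp sat within the spread of that gauge, and whether their transcripts are present at a low level cannot be read from these signals.

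**Figure D2:**
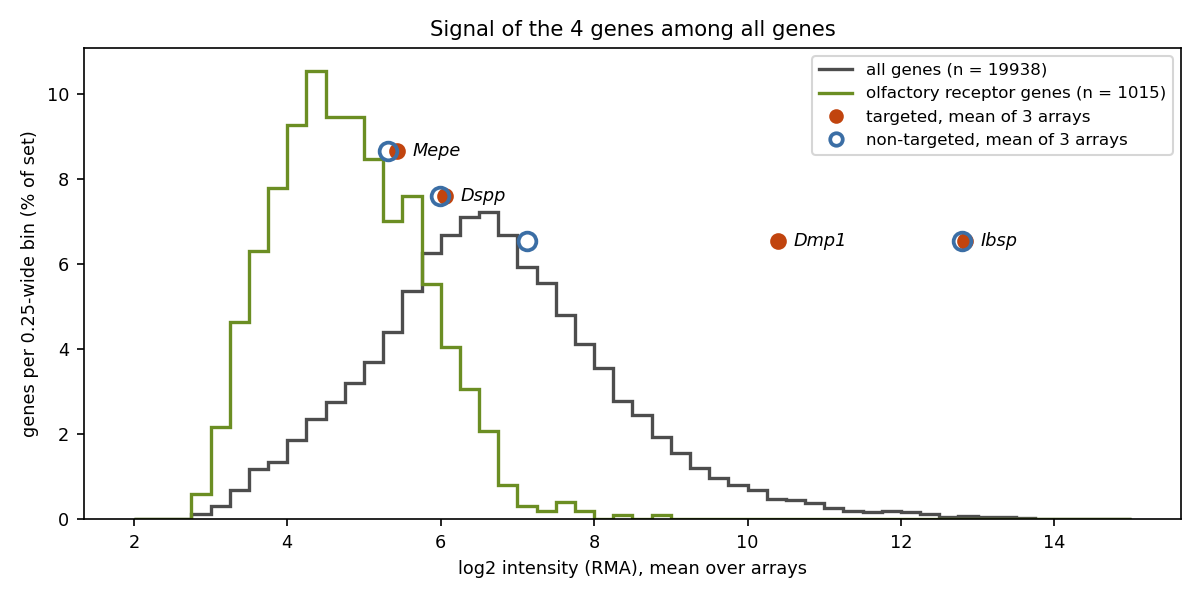
Distribution of mean log2 intensity (RMA) over the arrays for all 19938 genes and for 1015 olfactory receptor genes, as percent of each set per bin; filled points are the targeted and open points the non-targeted means (3 arrays each) of the 4 genes, placed at arbitrary heights. Ibsp lies in the far right tail in both populations, Mepe and Dspp lie within the olfactory receptor distribution, and Dmp1 lies at 10.40 for targeted cells, against 7.12 for non-targeted cells.

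Dmp1 was also set against Ibsp within each array. The log2 intensity of Dmp1 minus that of Ibsp was -1.72, -2.61 and -2.98 on the targeted arrays, against -5.01, -6.10 and -5.91 in non-targeted samples. The groups did not overlap, and the difference between populations was 3.24. The exact two-sided permutation p was 0.1 (0.1 adjusted over the 3 pairs computed), the smallest that 3 arrays against 3 allow, so it could not pass at 0.05. The within-array difference compares changes of the genes and not their levels. For Dmp1 minus Mepe the difference was 3.16 and for Dmp1 minus Dspp 3.21. The signals of Mepe and Dspp lie within the dim gauge, so these values restate the change of Dmp1. The value for Ibsp largely restates it too, because Ibsp itself differed by 0.05 between the populations.

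The 4 tested flanking genes had log2 differences whose 95% intervals all lay below that of Dmp1. Sparcl1, which encodes a matrix protein related to SPARC and lies next to Dspp, was at 6.73, 6.01 and 6.51 in targeted cells, against 7.57, 6.23 and 6.34 in non-targeted cells, with overlapping arrays and a log2 difference of -0.30. Beyond it, Nudt9, an ADP-ribose hydrolase gene, differed by 0.44 (95% interval -0.03 to 0.91) and Hsd17b11, a steroid dehydrogenase gene of lipid droplets, by -0.20, and Hsd17b13 was dim. On the far side of Mepe, past Spp1 and Pkd2, Thoc2l was at 8.48, 6.49 and 7.81 in targeted cells, against 6.67, 7.89 and 7.37 in non-targeted cells. Its arrays overlapped widely, and the log2 difference of 0.29 had an interval of -0.90 to 1.47. None of the 4 passed (limma, adjusted p = 0.9998 for each), and Thoc2l was added after its values were seen. The list of flanking genes also held Abcg2, a drug efflux transporter gene, and Ppm1k, a mitochondrial phosphatase gene, which the mouse annotation places on chromosome 6. They differed by -0.73 (limma, adjusted p = 0.970) and -0.18 (limma, adjusted p = 0.9998) and are no neighbours of Dmp1.

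**Figure D3:**
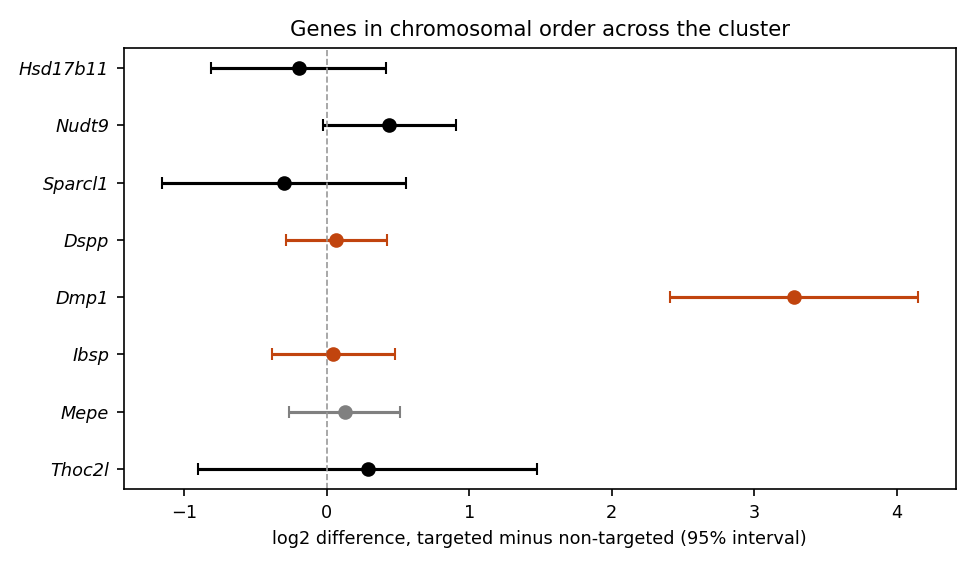
Log2 difference (targeted minus non-targeted, x axis) with the 95% interval of the limma fit for 8 genes in their order on chromosome 5, with the interval of Mepe from the fit without the filter on dim genes. Dmp1 lies at 3.28, and the intervals of the other 7 genes include 0.

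All 4 tested genes for enzymes that set the phosphate of these proteins, or for an activator of FAM20C, had positive log2 differences. So did 48.9% of all genes tested. The median of the 4 was 0.32, and none passed. Alpl, the tissue-nonspecific alkaline phosphatase, which frees phosphate for mineral and also acts on phosphoproteins, was at 11.76, 10.63 and 11.06 in targeted cells, against 10.42, 9.95 and 9.74 in non-targeted cells. Its arrays did not overlap, and the log2 difference was 1.11 (SE 0.31, limma, adjusted p = 0.824). Fam20c, the secretory-pathway kinase, was at 6.93, 6.95 and 6.34 in targeted cells, against 6.29, 6.19 and 6.57 in non-targeted cells. Those arrays overlapped, and the log2 difference was 0.39. Fam20a, which activates FAM20C, differed by 0.25, and Acp5, an acid phosphatase gene of osteoclasts that removes phosphate from osteopontin, by 0.12.

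Genes for the proteases that cut these proteins stood near the background of all genes. Of 8 tested, 5 were higher and 3 lower in targeted cells with a median of 0.21, which turned to -0.01 without targeted replicate 1, and 0 passed or had non-overlapping arrays, where 0.0% of all genes passed, 3.32% lay wholly above and 5.76% wholly below. Phex, an endopeptidase that degrades the mineral-binding peptide of MEPE, was at 8.17, 7.82 and 7.71 in targeted cells, against 8.26, 8.22 and 7.88 in non-targeted cells, a log2 difference of -0.22. Bmp1, the procollagen proteinase that splits DMP1 and DSPP into their fragments, differed by 0.27, and Pcolce, which enhances procollagen cleavage by BMP1, by -0.25. Mmp2, a gelatinase reported to bind bone sialoprotein, was at 10.11, 8.44 and 8.45 in targeted cells, highest in replicate 1, against 8.51, 7.91 and 8.27 in non-targeted cells. Mmp9, another gelatinase, differed by 0.59 and Mmp14, a membrane-bound metalloproteinase, by 0.34.

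Among receptors, Itgb5 and Itgb3, beta integrin chains that pair with the alpha v chain, had targeted arrays above non-targeted ones. Itgb5 averaged 9.32 ± 0.28 in targeted cells, against 8.87 ± 0.15 in non-targeted samples (SD, n = 3 for both), a log2 difference of 0.46. Itgb3 was at 7.54, 6.96 and 6.84 in targeted cells, against 6.66, 6.60 and 6.62 in non-targeted cells (log2 difference 0.48). Their partner Itgav hardly differed, at 8.87 ± 0.64 and 8.88 ± 0.26 (SD, n = 3 each). Itgb1 differed by -0.20, Itga8 by -0.36, Itga5 by -0.21 and Cd44, a hyaluronan receptor that also binds osteopontin, by 0.09. The list held 7 tested members, 3 higher and 4 lower, none of them called, with a median of 0.00 that took either sign under the alternatives. Targeted arrays lay wholly above for 2 of the 7, where 3.32% of all genes did so.

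The list of mineralisation and phosphate handling genes again held Alpl and Phex. Of its 9 tested genes, 6 had positive and 3 negative differences, where 48.9% of all genes were higher. The median was 0.10, or -0.05 without targeted replicate 1, and 0 were called, as were 0.0% of all genes. Slc20a2, a phosphate transporter gene, was at 9.15, 8.05 and 8.36 in targeted cells, against 8.09, 7.84 and 7.36 in non-targeted cells, with overlapping arrays and a log2 difference of 0.76. Slc20a1, a related transporter gene, differed by -0.28. Mgp, a vitamin K-dependent inhibitor of calcification, was at 9.84, 9.80 and 9.69 in targeted cells, against 9.77, 10.92 and 11.14 in non-targeted cells. Its groups overlapped through non-targeted replicate 1, and the log2 difference was -0.83. Ank, a pyrophosphate transport gene, differed by 0.24. Fgf23, the phosphate-lowering hormone gene, averaged 6.52 ± 0.30 in targeted cells, against 6.43 ± 0.05 in non-targeted cells (SD, n = 3 for both). Phospho1, the phosphatase gene of matrix vesicles, was dim.

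Transcription factor genes of the osteoblast lineage were mostly slightly higher in targeted cells. Of 10 tested, 7 were higher and 3 lower, with a median of 0.20 against -0.01 over all genes, and 0 were called. Targeted arrays lay wholly above for 4 of the 10, against 3.32% of all genes. Mef2c, a factor of osteocytes among many cell types, was at 8.29, 8.04 and 8.08 in targeted cells, against 7.33, 7.52 and 7.50 in non-targeted cells. Its log2 difference of 0.68 (SE 0.15) did not pass (limma, adjusted p = 0.701). Sp7, the osteoblast factor also called osterix, differed by 0.37, and the homeobox genes Dlx5 and Dlx3 by 0.49 and 0.44. Runx2 was not analysed here.

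The other genes usually named as osteocyte markers differed much less than Dmp1. Of the 17 listed, 14 were tested and 0 were called, as were 0.0% of all genes. Besides Dmp1 none had non-overlapping arrays or reached an unadjusted limma p of 0.05. Over all genes these shares were 3.32% above with 5.76% below, and 4.77%, so these counts stood near the background. The median over the 14, which include Dmp1 and Dspp, was 0.09, with 12 higher and 2 lower, where 48.9% of all genes were higher. Sost, which encodes the Wnt inhibitor sclerostin of osteocytes, averaged 7.22 ± 0.24 in targeted cells, against 7.18 ± 0.28 in non-targeted cells, and Pdpn, a podoplanin gene of early osteocytes, was at 7.04 ± 0.29 and 6.90 ± 0.19 (SD, n = 3 each). Capg, an actin-capping protein gene, differed by 0.69, with 7.36 in targeted replicate 2 and lower values, 5.90 and 6.04, in the other targeted samples. Dkk1, a Wnt inhibitor gene, differed by 0.16. Mepe, Cd109 and Ptprz1 of this list were dim and not tested. Capg averaged 6.43 in targeted and 5.74 in non-targeted cells, and Dkk1 6.52 and 6.36. The 95th percentile of the olfactory receptor gauge was 6.46 in targeted and 6.39 in non-targeted cells. Signals near the array's floor, here also those of Dspp and Fgf23 given above, can understate a difference. The osteoblast markers as a list stood higher, with 11 of 13 tested members above 0 (48.9% of all genes), a median of 0.44, and targeted arrays wholly above for 6 of the 13 (3.32% of all genes), none of them called. Mmp13, a collagenase gene, differed by 1.04, Wif1, a Wnt inhibitor gene, by 0.85 and Bmp3, a bone morphogenetic protein gene, by 0.46. Of the CAR cell genes 13 of 14 were lower (51.1% of all genes), with a median of -0.29 and targeted arrays wholly below for 4, where 5.76% of all genes lay so. Il7, a lymphoid cytokine gene, differed by -1.03, Lepr, the leptin receptor gene, by -0.49, Grem1, a BMP antagonist gene, by -0.50 and Esm1, a secreted proteoglycan gene, by -0.48.

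**Figure D4:**
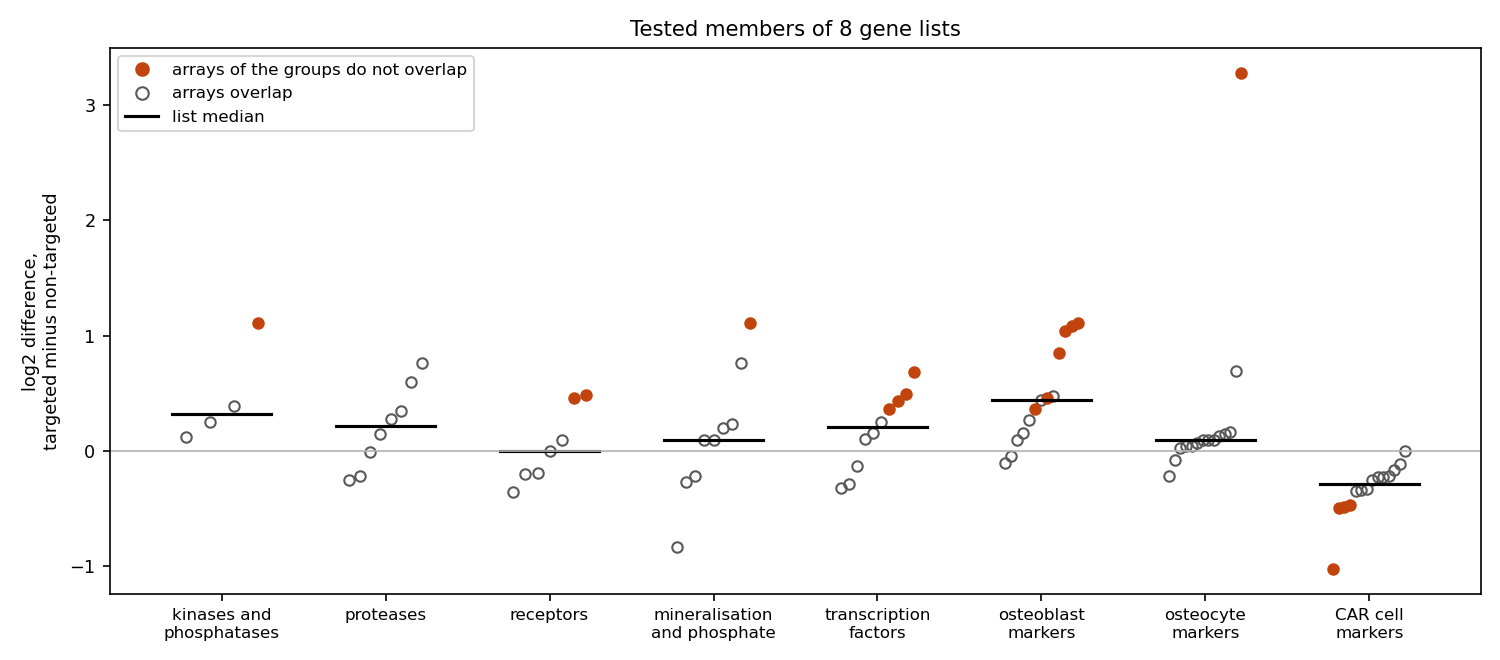
Log2 difference (targeted minus non-targeted) of each tested member of 8 gene lists; filled points are genes whose arrays do not overlap between the groups, open points are the others, and lines are list medians. Dmp1, at 3.28 in the osteocyte list, stands apart from every other member shown.

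Targeted replicate 1, the array with the highest Dmp1, also differed in other lists. The mean log2 intensity of the osteoblast markers was 10.14 there, with 9.65 and 9.74 in the other targeted samples, against 9.36, 9.39 and 9.35 in the non-targeted samples. Neutrophil markers, all 12 with a value and 10 tested, averaged 6.24 on targeted replicate 1, with 7.81 and 8.48 in the other targeted samples, against 8.07, 8.43 and 8.71 on the non-targeted arrays. Their summed intensities ran from 1168 to 11601 in targeted cells and from 9087 to 14191 in non-targeted cells. Of the 10 tested genes 9 had lower means in targeted cells, where 51.1% of all genes did. The median log2 difference of the 10 was -1.14, and -0.29 without targeted replicate 1. Osteoclast markers averaged 6.31 to 6.37 on targeted arrays, against 6.11 to 6.26 on non-targeted arrays. Of the 9 endothelial markers 6 were dim. The part of other cells in the Dmp1 values was not tested, and without targeted replicate 1 the Dmp1 difference was 2.84, as given above.

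The genes whose values over the 6 arrays lay nearest to those of Dmp1 were named by the root mean square difference between profiles centred on their own means. A gene with no variation would lie 1.71 from Dmp1. The nearest were Fat3, an atypical cadherin gene, at 0.777, Cpe, the carboxypeptidase E gene, at 0.791, and Car3, a carbonic anhydrase gene, at 0.810. They were followed by Mgll, a monoacylglycerol lipase gene, at 0.883, Pdgfc, a growth factor gene, at 0.901, and Postn, the periostin gene, at 0.920. Vdr, the vitamin D receptor gene, lay at 1.02 and Lrp4, a co-receptor gene for sclerostin, at 1.03. All 8 had their highest value in targeted replicate 1, as Dmp1 did, but they were picked for nearness to a profile that peaks there. Cpe was at 9.82, 9.03 and 8.60 in targeted cells, against 7.82, 7.14 and 7.31 in non-targeted cells, with no overlap. Fat3 was at 10.56, 7.83 and 8.52 in targeted cells, against 7.49, 6.15 and 6.97 in non-targeted cells. Its arrays did not overlap either, but both genes were picked for nearness to a profile whose groups lie apart. Over all genes tested, which were not so picked, targeted arrays lay wholly above for 3.32%. Pdgfc, also among the 8, had overlapping arrays. The log2 differences were 1.73 for Cpe and 2.10 for Fat3, and neither passed (limma, adjusted p of 0.701 and 0.946). With 6 arrays and 13292 genes, near profiles arise readily, and the measure describes these arrays.

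**Figure D5:**
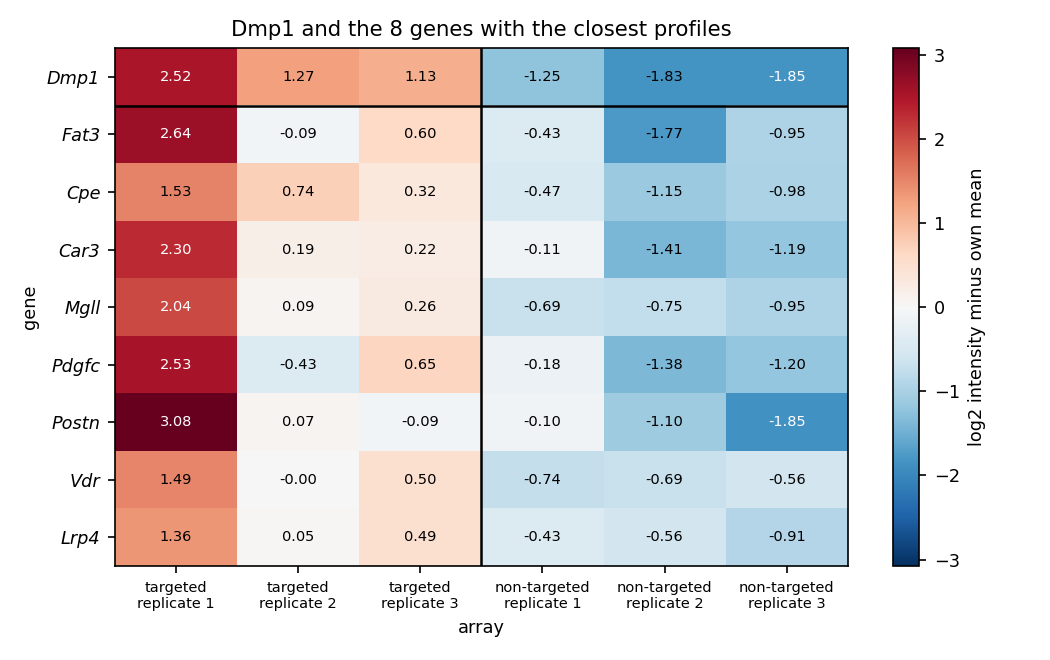
Log2 intensity minus the gene's own mean over 6 arrays for Dmp1 (top row) and the 8 genes with the smallest root mean square difference from it, targeted arrays left of non-targeted arrays. The value in targeted replicate 1 is the highest of each row, at 2.52 for Dmp1.

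The profile of Ibsp varied little, by 0.183 about its own mean, and its nearest genes were Zfc3h1 at 0.032, an RNA exosome cofactor gene, Lsm12 at 0.033, Ankra2 at 0.034 and Ago3, an Argonaute gene, at 0.038. Dgat1, Lmf2, Spata2l and Txlng followed at 0.044 to 0.056. For Ibsp, 1317 genes lay nearer than a flat profile would. The profile of Dspp varied by 0.108, and its nearest genes were Olfr10, Mtcl1, Mcf2l, Kcne1l, Celsr1, Siglec1, Lemd2 and Ntsr2, at 0.018 to 0.022. The nearest of these, Olfr10, is an olfactory receptor gene. None of the 8 genes nearest to Dmp1 was among the 8 nearest to Ibsp or to Dspp. That follows from the measure, which is not scaled, because the profile of Dmp1 varied far more than theirs.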

How the data were processed

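The 6 sorted-cell RNA samples had 1 array each. The deposited values were linear array intensities per probe set, made by the authors with RMA in version 1.4 of Affymetrix Expression Console, according to the submitters' processing notes. The sources used here give neither the annotation nor the genome build. The log2 of each intensity was taken.

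The platform's annotation paired probe sets with genes, and 21698 of 21789 single-gene probe sets matched RefSeq of GRCm38.p6 by Entrez identifier. Probe sets for several genes (1621) or without an entry (12146) were dropped. The probe set with the highest mean over the 6 arrays stood for a gene, giving 19938 genes. The dimmest 33.3% of these, with means up to 6.00 (log2), were not tested, which left 13292.

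The populations were compared by lmFit and eBayes of limma 3.58.1 (R 4.3.3), targeted minus non-targeted, without covariates. Two-sided p-values were adjusted by the Benjamini-Hochberg method over all genes tested. Single values and within-array differences used the exact permutation test over samples. The fit was tested on simulated data with 200 changed genes. Alternatives were other filters, scalings and variance models, array weights, averaged probe sets, the replicate number as a block, and leaving out each array.

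The members, the 18 gene lists and the tests were chosen with earlier results of these data known. The genes named are the members, a list of genes taken to flank them (2 of which lie on chromosome 6), up to 4 tested genes of a list by smallest p plus 5 chosen genes (Alpl, Phex, Fam20c, Runx2 and Sp7), and the 8 genes whose centred profiles lay nearest to that of a member. Other list genes named to describe a list were chosen after their values were seen.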

Additional observations from a re-analysis of the deposited data

How the results depend on the processing

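The replicate numbers were not taken to pair the samples, because the labels do not say that a number marks a mouse. The deviations of same-numbered arrays from their group means correlated at -0.256, -0.124 and 0.0652 across genes. These correlations cannot settle the pairing, since the 3 deviations of a group sum to 0 for each gene. With the replicate block, Dmp1 had a log2 difference of 3.28 and was the only gene called higher (limma, adjusted p = 0.0153, 1 of 13292 genes). With array weights, Dmp1 at 3.19 (adjusted p = 0.0259) was again the only gene called. No gene was called lower under these or the other settings. In the fits that leave out 1 array each, Dmp1 ran from 2.84 to 3.54, with adjusted p from 0.0878 to 0.9999 and 0 genes called higher. Ibsp ran from -0.090 to 0.17 there and was -0.038 with array weights, with the sign turned at -0.034 without targeted replicate 1 and at -0.090 without non-targeted replicate 1. Dspp ran from 0.01 to 0.17 and Mepe from -0.014 to 0.21. On replicates 2 and 3 alone, a setting chosen after seeing the data, Dmp1 was at 3.04, Dspp at 0.19, Ibsp at -0.17 and Mepe at 0.28. Dspp had no value with the dimmer 50% of genes left out, and Mepe had a test only without the filter. The within-array differences between Dmp1 and the other 3 genes, of which Mepe and Dspp are dim, ran from 2.63 to 3.57 over all settings. Of 270 list medians under the alternatives, 28 changed sign, in 8 lists with reported medians of -0.011 to 0.21. The exact test cannot pass with 3 arrays per group, and signals near the array's floor limit Mepe and Dspp.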
